A study of Mus musculus with 2 samples.

Results

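T cell receptor variable genes were followed in CD45+ leukocytes sorted from mouse lung, in 1 single-cell library from animals that were not exposed and 1 library from animals exposed to diesel exhaust particles. Members were the gene rows whose symbol starts with Trav, Trbv, Trdv or Tcrg-V and that held at least 20 UMIs (unique molecular identifiers, each a counted RNA molecule) over both libraries. They were 26 of 175 variable gene rows and of 31053 genes: 8 of 128 Trav, 13 of 35 Trbv, 2 of 6 Trdv and 3 of 6 Tcrg-V rows. Another 72 variable rows had no UMI, and 77 had 1 to 19. Just inside the threshold were Trbv15 with 21 UMIs and Trbv16 and Trav13-4-dv7 with 22 each. Just outside it were Trbv12-1, Trav11 and Trav6-5 with 19 each.

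Both libraries were labelled Ccr2-/- (a deletion of the chemokine receptor that monocytes use to leave the bone marrow), while the series text also names C57BL/6J wild-type mice. The control library carried the CD45.1+ label and had no treatment. The exposed library carried the label CD45.3+ and came from mice that inhaled the particles at 500 µg/m³ in a whole-body system for 1 hour a day, 5 days a week, over 2 weeks. Age, the number of animals and whether animals were pooled were not given in the sources used here. With 1 library a group, exposure, the CD45 label and the library cannot be told apart, and no p-value is given for exposed against control.

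An αβ T cell receptor pairs a chain that uses 1 Trav segment with a chain that uses 1 Trbv segment, and a γδ receptor pairs a Tcrg-V chain with a Trdv chain. The segment is chosen by DNA recombination in the developing cell, so its messenger RNA marks a clone's receptor. The variable segment lies near the 5′ end of the receptor transcript, whereas the kit used here reads the 3′ end. A missing variable gene in a cell therefore does not show that the cell lacks it.

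The segments that carried most of the signal are shown by the last 60 bases of their germline coding sequence, the end that recombination joins. Capitals mark the cysteine codon that begins the CDR3, the loop that contacts antigen. All were read from GENCODE M21 (GRCm38, the same assembly as the mm10 of the deposited files) and all lie on the plus strand within the V coding exon. Trdv4 ends at chr14:54075456-54075515, Tcrg-V6 at chr13:19190870-19190929 and Trbv12-2 at chr6:41119305-41119364.
Trdv4: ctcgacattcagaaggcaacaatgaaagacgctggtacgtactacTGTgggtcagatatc
Trdv2-2: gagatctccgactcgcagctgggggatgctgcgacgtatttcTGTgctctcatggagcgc
Tcrg-V6: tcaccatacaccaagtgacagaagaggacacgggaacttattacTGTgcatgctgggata
Tcrg-V4: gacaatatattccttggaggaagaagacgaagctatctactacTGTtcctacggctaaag
Tcrg-V1: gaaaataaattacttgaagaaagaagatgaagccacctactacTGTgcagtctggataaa
Trbv12-2: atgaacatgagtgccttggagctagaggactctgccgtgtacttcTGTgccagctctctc
Trbv13-2: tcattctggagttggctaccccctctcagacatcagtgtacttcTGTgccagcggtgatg
Trbv13-3: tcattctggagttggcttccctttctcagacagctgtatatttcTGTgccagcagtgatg

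Among variable genes with a coding sequence, symbols could be separated by sequence in the beta locus but less well in the alpha locus. None of the 13 Trbv members shared a 60-base stretch of coding sequence with another such gene. Of the 22 other Trbv rows only 9 had a coding sequence, and the rest were not compared. Each of the 8 Trav members did, over a median of 47.3% of its 60-base stretches, and among the 100 other Trav rows with a coding sequence the median was 75.5%. Trav16 and Trav16n differed at 5 of 350 positions (98.6% identity). Trdv2-2 shared 56.4% of its stretches and Tcrg-V1 15.6%, while Trdv4, Tcrg-V4 and Tcrg-V6 shared none. Counts of Trav genes and of Trdv2-2 are therefore uncertain between near-identical copies. Trbv12-2, the Trbv member with most UMIs (167), and Trbv12-1, which missed the threshold, were 88.2% identical over 372 bases. Their last 150 coding bases are shown with the 14 positions that differ in capitals.
Trbv12-1: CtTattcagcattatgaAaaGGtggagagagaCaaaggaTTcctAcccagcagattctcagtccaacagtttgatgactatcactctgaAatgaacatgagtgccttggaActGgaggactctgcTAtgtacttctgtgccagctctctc
Trbv12-2: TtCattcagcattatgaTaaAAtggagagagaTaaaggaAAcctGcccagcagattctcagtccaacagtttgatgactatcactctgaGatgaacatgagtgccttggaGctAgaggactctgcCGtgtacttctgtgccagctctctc

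T cells were the barcodes with at least 1 UMI of Cd3e, Cd3d and Cd3g, the CD3 signalling chains, summed. There were 2141 control and 1808 exposed T cells, of 8940 and 8690 cells kept. Median depth was 5256 and 5796 UMIs a T cell. CD4 T cells (Cd4, no Cd8a or Cd8b1) numbered 481 and 415, CD8 T cells 523 and 486, and T cells with a UMI of Trdc, the δ constant gene, 144 and 131. The gate was not pure. Trac, the α constant gene, was seen in 61.3% and 68.6% of gated cells, and 249 and 145 of them also met the neutrophil gate (at least 20 UMIs of S100a8 and S100a9). Among the 952 and 751 gated cells that fell in none of the named classes, 241 and 145 met that gate. Among Trdc-positive cells, 44 and 45 also had Trac and 21 and 22 had Ncr1, an NK cell receptor. The 2 libraries shared 23 cell barcodes.

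Each chain was seen in a minority of the cells of every class, and its share differed between classes. A Trbv member was seen in 11.4% of CD4 T cells of the control library (95% exact Clopper-Pearson interval 8.73 to 14.6) and 12.05% of the exposed (9.08 to 15.6). In CD8 T cells the shares were 15.3% (12.3 to 18.7) and 14.6% (11.6 to 18.1). In Trdc-positive cells they were 3.47% (1.14 to 7.92) and 6.87% (3.19 to 12.6). A Trav member was seen in 3.74% and 5.06% of CD4, 5.93% and 5.76% of CD8 and 0.694% and 1.53% of Trdc-positive cells. When the 120 Trav rows under the threshold were added, the CD4 shares rose to 13.1% and 14.0%. The Trav signal was spread over more rows than the Trbv signal: members held 229 of 647 Trav UMIs but 554 of 641 Trbv UMIs.

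Among the T cell classes, the shares of Trdv and Tcrg-V members were highest in Trdc-positive cells. A Trdv member was seen in 47 of 144 Trdc-positive cells of the control library (32.6%, 25.1 to 40.9) and in 33 of 131 of the exposed (25.2%, 18.0 to 33.5). In CD4 and CD8 T cells Trdv members were seen in 3 and 2 control cells and in 0 and 2 exposed cells. Tcrg-V members were seen in 12.5% (7.58 to 19.0) and 16.0% (10.2 to 23.5) of Trdc-positive cells and in under 1% of CD4 or CD8 T cells. Trdv members were also seen in cells without CD3 UMIs, in 65 of 6799 control cells (0.956%, 0.739 to 1.22) and 85 of 6882 exposed cells (1.24%, 0.988 to 1.52). As a measure of background for the αβ chains, B cell gate barcodes without CD3 UMIs held 2 Trav and 1 Trbv UMI among 1977 control cells and 1 Trbv UMI among 1755 exposed cells, at median depths of 3347 and 3661 UMIs. After every cell was thinned to 1500 UMIs, a Trbv member was left in 3.30% of control and 3.07% of exposed T cells, against 9.11% and 10.7% unthinned.

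**Figure D1:**
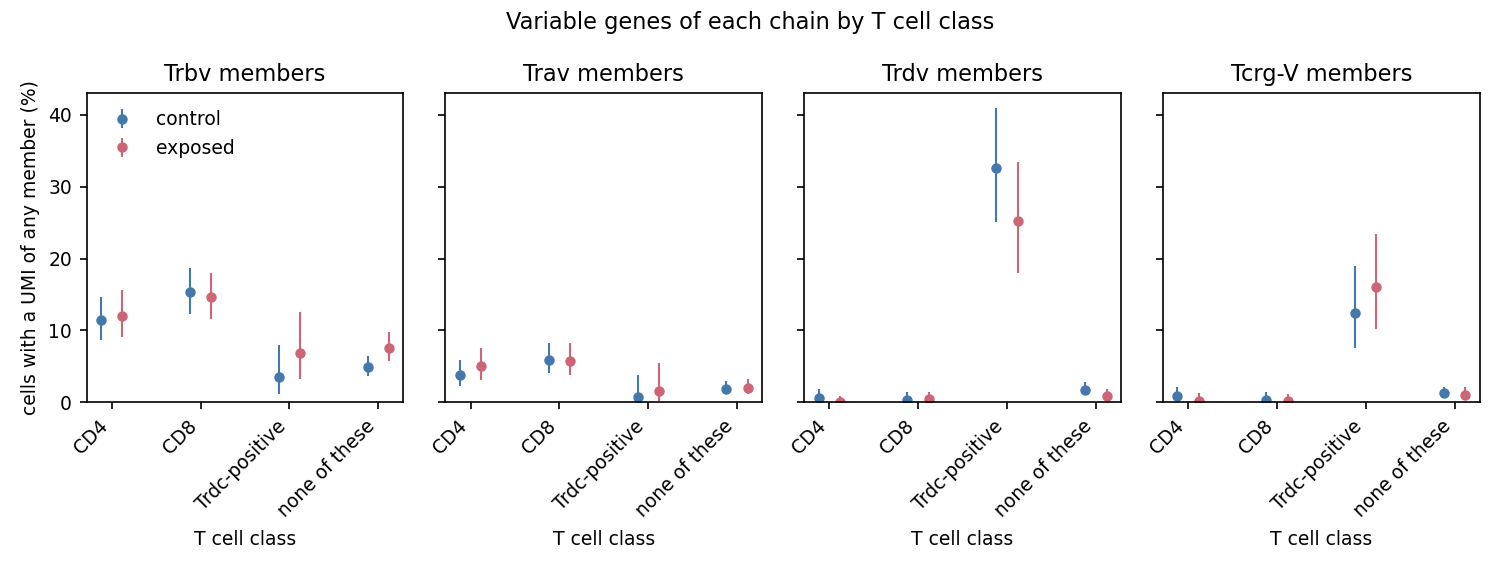
Share of cells (%, y axis) with a UMI of any Trbv, Trav, Trdv or Tcrg-V member in CD4, CD8, Trdc-positive and remaining T cells (x axis), for the control (blue) and exposed (red) library, with bars for 95% exact Clopper-Pearson intervals that cover counting error only. Trdv and Tcrg-V members stand at 12.5% to 32.6% in Trdc-positive cells and under 2% in the other T cell classes, and Trbv members are at 11.4% to 15.3% in CD4 and CD8 T cells.

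Within the beta chain, Trbv12-2 stood apart from the other members. It was seen in 63 of 2141 control T cells (2.94%, 2.27 to 3.75) and 59 of 1808 exposed T cells (3.26%, 2.49 to 4.19). Next in order were Trbv13-2 with 17 and 25 cells (0.794% and 1.38%), Trbv2 with 19 and 17 (0.887% and 0.940%), Trbv1 with 12 and 13 (0.560% and 0.719%) and Trbv3 with 13 and 11 (0.607% and 0.608%). Trbv13-1 (12 and 11 cells), Trbv20 (13 and 10) and Trbv29 (14 and 9) followed. Below Trbv12-2 the intervals of neighbours in this order overlapped in both libraries. The remaining 5 Trbv members were seen in 7 to 9 control and 8 to 15 exposed T cells each. Detection depends on the reads that reach a segment, so the order of shares is not an order of receptor use.

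Among the alpha chain members Trav16 was seen in 15 control and 12 exposed T cells (0.701% and 0.664%) and its near copy Trav16n in 13 and 12 (0.607% and 0.664%). Trav3-3 was seen in 12 and 9 cells, and Trav13-1 in 7 and 6. The 3 members that also carry a delta chain name, because the segment can join either locus, were Trav14d-3-dv8 with 11 and 8 T cells, Trav6-7-dv9 with 9 and 9, and Trav13-4-dv7 with 1 and 4. Only Trav6-7-dv9 (1 control cell) and Trav13-4-dv7 (2 exposed cells) were seen at all in Trdc-positive cells. Trav14-3 was seen in 5 and 8 T cells. All 8 had overlapping intervals with their neighbours in the order. Trav11, the α segment of invariant NKT cells, was no member and was seen in 6 control and 10 exposed T cells.

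The comparison of exposed with control mice asks whether inhaled particles changed which receptors the lung T cells carry. No member's share differed between the libraries beyond counting error in any class: 0 of 26 had a 95% interval of the exposed-to-control ratio that excluded 1 in all T cells, CD4 T cells, CD8 T cells or Trdc-positive T cells. Over all genes with at least 20 UMIs in the class, 20.7% had such an interval in all T cells, 11.6% in CD4, 6.41% in CD8 and 2.17% in Trdc-positive T cells. In all T cells 22 of the 26 members reached 20 UMIs, and in the CD4, CD8 and Trdc-positive classes 1, 2 and 2 members did, so most single ratios were wide.

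The best measured member, Trbv12-2, had a ratio of 1.11 (0.764 to 1.61). Trdv4 had 0.804 (0.512 to 1.25) in all T cells and 0.824 (0.496 to 1.36) in Trdc-positive cells. Among the 22 members with at least 20 UMIs in T cells, the highest ratios were those of Trbv13-3 (7 against 15 cells, ratio 2.54, 0.974 to 7.36), Trav14-3 (5 against 8 cells, 1.89, 0.547 to 7.36) and Trbv13-2 (17 against 25 cells, 1.74, 0.904 to 3.44). The lowest was that of Trdv2-2 (17 against 7 cells, ratio 0.488, 0.171 to 1.24). In all T cells 17 members had a higher share in the exposed library and 9 a lower one, with a median log2 ratio of 0.13 against -0.08 over all genes. The share of gated cells with Trac and the median depth (5796 against 5256 UMIs) were also higher in the exposed library. Their part in this median was not tested. Across the 26 members the shares of the libraries were correlated (Pearson r 0.93, Spearman rho 0.51, over genes that are no independent replicates and share a library and its depth). Pearson r is sensitive to Trbv12-2 and Trdv4, whose shares stood above the rest in both libraries. The counts of cells leave shifts of the size of each interval undetectable at this depth.

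**Figure D2:**
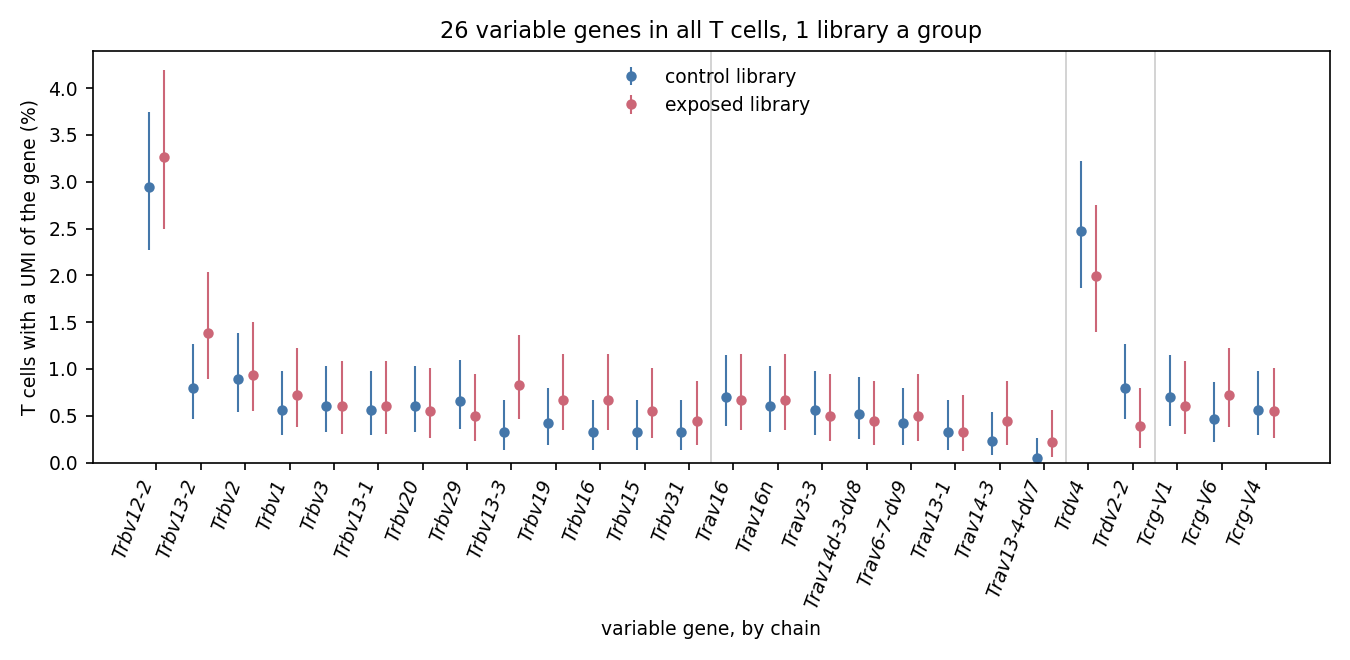
Share of all T cells (%, y axis) with a UMI of each of the 26 members (x axis, grouped by chain and ordered by cells seen), for the control (blue, 2141 cells) and exposed (red, 1808 cells) library, with bars for 95% exact Clopper-Pearson intervals that cover counting error only. Trbv12-2 at 2.94% and 3.26% and Trdv4 at 2.48% and 1.99% stand above the rest, and control and exposed intervals overlap for every member.

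Cells with more than 1 Trbv gene were few. Most T cells are known to express a single β chain. Of T cells with a Trbv member, 5 of 195 control cells held 2 or more (2.56%, 0.838 to 5.88) and 18 of 193 exposed cells did (9.33%, 5.62 to 14.3). The exposed share was 3.64 times the control share, with a 95% exact interval of 1.30 to 12.5 that covers counting error between these libraries only. Over all 35 Trbv rows, a setting added after the values were seen, the counts were 11 of 217 (5.07%, 2.56 to 8.89) and 23 of 226 (10.2%, 6.56 to 14.9), a ratio of 2.01 (0.940 to 4.56), whose interval includes 1. After thinning to 1500 UMIs the counts were 0 of 70 and 1 of 55. Trbv12-2 with Trbv13-2 was the most frequent combination, in 1 control and 6 exposed cells, followed by Trbv12-2 with Trbv13-3 in 1 and 4. Of the 25 exposed cells with Trbv13-2, 6 also held Trbv12-2, against 1 of 17 control cells. Trbv12-2 lies directly before Trbv13-2 on the same strand, with 2031 bases between the genes. Trbv13-1 lies directly before Trbv12-2, with 2382 bases between, and was seen with it in 1 exposed cell. Trbv13-3 is not a direct neighbour of Trbv12-2. A part of gene position in these combinations was not tested. Median depth of cells with 2 or more was 6648 UMIs against 6411 with 1 in the exposed library and 4786 against 6277 in the control. The part of depth in the difference between the libraries was not tested beyond the thinned counts.

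CD8 and CD4 T cells were compared within both libraries, with the libraries as replicates and as a block. Of the 26 members 8 reached a summed count of 20 and were tested, and 0 had an adjusted p under 0.05 by edgeR's quasi-likelihood test, whereas 8.53% of 10772 genes did (919 genes, of which 342 or 3.17% were higher and 577 or 5.36% lower in CD8). At an unadjusted p under 0.05 there were 2 members. DESeq2 gave an adjusted p for 1 of the 8, Trbv12-2, and it did not pass. Trav16n had 2 UMIs in CD4 and 11 in CD8 T cells of the control library and 2 and 10 in the exposed, a log2 fold change of 2.19 ± 0.81 (SE, edgeR adjusted p = 0.116). Trbv20 had 13 UMIs in CD4 and 0 in CD8 T cells of the control library but 4 and 4 in the exposed (-2.10 ± 0.99, edgeR adjusted p = 0.241). Neither gene passed. Trbv20 UMIs differed between the classes in the control library only, and Trav16n UMIs were higher in CD8 in both libraries. By share of cells the CD8-to-CD4 ratios of Trav16n were 4.14 (0.857 to 39.4) and 3.84 (0.795 to 36.5), and both intervals include 1. Its counts are uncertain against the near copy Trav16, seen in 4 CD4 and 9 CD8 control cells and 4 and 5 exposed cells.

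The other 3 members with the smallest p in that comparison were Trbv12-2, Trav16 and Trbv1. Trbv12-2 was seen in 12 CD4 and 28 CD8 cells of the control library (2.49% and 5.35%, ratio 2.15, 1.06 to 4.63) and in 15 and 20 of the exposed (3.61% and 4.12%, ratio 1.14, 0.554 to 2.39), with a log2 fold change of 0.66 ± 0.40 (edgeR adjusted p = 0.403). Trav16 had a log2 fold change of 0.83 ± 0.76 and Trbv1 of 0.82 ± 0.80, both with adjusted p above 0.6. Of the constant and signalling genes of the receptor 0 of 13 tested passed edgeR's adjusted threshold, 4 had an unadjusted p under 0.05 and DESeq2 called 0. With 2 libraries and 1 residual degree of freedom the p-values measure only the spread between these libraries, which differ in exposure.

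Trdv4 was the member with most UMIs, 432 over both libraries. It encodes a δ variable segment known from γδ T cells that form early in life, settle in mucosa and lung and make interleukin-17A. It was seen in 40 of 144 Trdc-positive T cells of the control library (27.8%, 20.6 to 35.8) and 30 of 131 of the exposed (22.9%, 16.0 to 31.1). Thinned to 1500 UMIs the shares were 11.9% and 13.0%. It was seen in 0 of 481 and 0 of 415 CD4 T cells and in 0 of 523 and 1 of 486 CD8 T cells. Trdv2-2, the other δ member, was seen in 7 and 3 Trdc-positive cells and never in a cell with Trdv4 there.

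Of the γ members, Tcrg-V6 was seen mostly in cells with Trdv4. Tcrg-V6 was seen in 9 control Trdc-positive cells, all 9 of them with Trdv4, and in 12 exposed cells, 10 of them with Trdv4. Read the other way, 9 of 40 Trdv4 cells held Tcrg-V6 (22.5%, 10.8 to 38.5) against 0 of 104 without Trdv4 in the control library, and 10 of 30 (33.3%, 17.3 to 52.8) against 2 of 101 in the exposed. Tcrg-V6 and Trdv4 are known as partner chains. Tcrg-V4 was seen in 3 and 5 Trdc-positive cells, 1 of them with Trdv4 in each library. Tcrg-V1 was seen in 7 and 6, 2 of them with Trdv4 in each. Of all Trdc-positive cells, 40 of 144 and 30 of 131 had Trdv4.

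In the γ locus Tcrg-V4 and Tcrg-V6 lie before Tcrg-C1, and Tcrg-V1 lies before Tcrg-C4. All 9 control and all 12 exposed cells with Tcrg-V6 had a Tcrg-C1 UMI, as did all 3 and all 5 with Tcrg-V4. Tcrg-C1 was seen in 39 of 40 Trdv4 cells of the control library (97.5%, 86.8 to 99.9) against 34 of 104 without Trdv4 (32.7%, 23.8 to 42.6), and in 29 of 30 against 34 of 101 in the exposed. Tcrg-C4 was seen in all 7 control cells with Tcrg-V1 but in 3 of 6 exposed cells. Tcrg-C1 was present in 5 of those 6, against 2 of 7 in the control. Trac, which γδ cells should lack, had UMIs in 11 of 40 and 4 of 30 Trdv4 cells.

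Trdv4 cells carried the genes of interleukin-17-producing γδ T cells and little of those of cytotoxic, interferon-producing lymphocytes. Trdc-positive T cells with and without a Trdv4 UMI were compared over all genes, a comparison added after the values of Trdv4 had been seen. Of 7551 genes tested 242 had an adjusted p under 0.05 by edgeR (3.20%), 97 higher (1.28%) and 145 lower (1.92%) in Trdv4 cells. The higher ones include Trdv4 itself, which defines the split. The 2 libraries were again the replicates and the block, with 1 residual degree of freedom. The p-values therefore measure only the spread between these libraries, which differ in exposure. Of 13 genes of a type 17 list 11 were tested, 7 rose and 0 fell, with a median log2 fold change of 3.13 against -0.05 over all genes tested. Of 12 genes of a type 1 list 0 rose and 9 fell, with a median of -4.14.

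Among the type 17 genes, Il17a, the cytokine itself, had 7 UMIs in Trdv4-negative and 27 in Trdv4-positive cells of the control library and 5 and 54 in the exposed (4.34 ± 0.57, edgeR adjusted p = 0.0314). In both libraries the Trdv4-positive level was above the Trdv4-negative one. Cd163l1 (SCART1, a scavenger receptor of such cells) stood at 109 and 1115 CPM (the UMIs of a gene scaled to a fixed library total) in the control and 94.9 and 1103 in the exposed library (3.31 ± 0.18, edgeR adjusted p = 0.0172). Blk (a Src-family kinase), Maf and Sox13 (transcription factors of the lineage) and Il1r1 (the interleukin-1 receptor) also rose, by 2.72 to 3.25 on the log2 scale. Il23r reached 3.69 ± 0.65 without passing (edgeR adjusted p = 0.0589).

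Type 1 genes were low in Trdv4 cells of both libraries. Ccl5, a chemokine, had 3977 UMIs in Trdv4-negative and 81 in Trdv4-positive cells of the control library and 4034 and 5 in the exposed (-5.57 ± 0.73, edgeR adjusted p = 0.0314). Nkg7, a cytotoxic granule protein, stood at 1177 and 131 CPM in the control and 1220 and 158 in the exposed library (-3.18 ± 0.17, edgeR adjusted p = 0.0172). Ifng had 74 and 2 UMIs in the control and 29 and 0 in the exposed library, 16.3-fold lower over both (counting interval 4.4 to 137). Xcl1 was 137-fold lower (24.5 to 5443), Klrd1 65.4-fold lower (18.0 to 542) and Cd27 34.4-fold lower (9.40 to 286), each on 1 or 2 UMIs in Trdv4 cells. Counting intervals of UMIs, here and below, treat each UMI as independent and can be too narrow. For example, 248 Xcl1 UMIs lay in 35 Trdv4-negative cells of the control library. Eomes, Gzmb and Ly6c2 fell too. Gzma, Tbx21 and Klrk1 did not pass.

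Receptor signalling genes moved in both directions. Lck, the kinase that starts signalling in most T cells, had 189 UMIs in Trdv4-negative and 1 in Trdv4-positive cells of the control library and 175 and 0 in the exposed, 115-fold lower over both (counting interval 20.6 to 4567, edgeR adjusted p = 0.0172). Blk, of the same kinase family, moved the other way. Trdc rose (log2 fold change 1.90 ± 0.15), as did Tcrg-C1 (2.63 ± 0.22) and Cd3g (1.32 ± 0.13). Those 4 were the calls among 14 tested genes of the constant and signalling list. Trdc and Cd3g were also used to gate these cells. Lef1, a transcription factor of naive T cells, fell (log2 fold change -2.75 ± 0.29), and of 5 tested NKT list genes Cxcr6 rose and Klrb1c and Il2rb fell.

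Markers of other lymphocytes moved with the split. An Ncr1 UMI was found in 21 of 104 and 22 of 101 Trdv4-negative cells and in 0 of 40 and 0 of 30 Trdv4-positive cells. Without Ncr1 cells 9 of 11 type 17 genes rose and 10 of 12 type 1 genes fell. When cells with a UMI of Ncr1, Trac, Cd4, Cd8a or Cd8b1 were left out, 47 and 36 negative and 27 and 26 positive cells remained, and the counts were 7 of 11 and 10 of 12. Trdv4-negative cells include cells whose Trdv4 RNA was not captured, so the differences are between cells with and without a UMI.

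**Figure D3:**
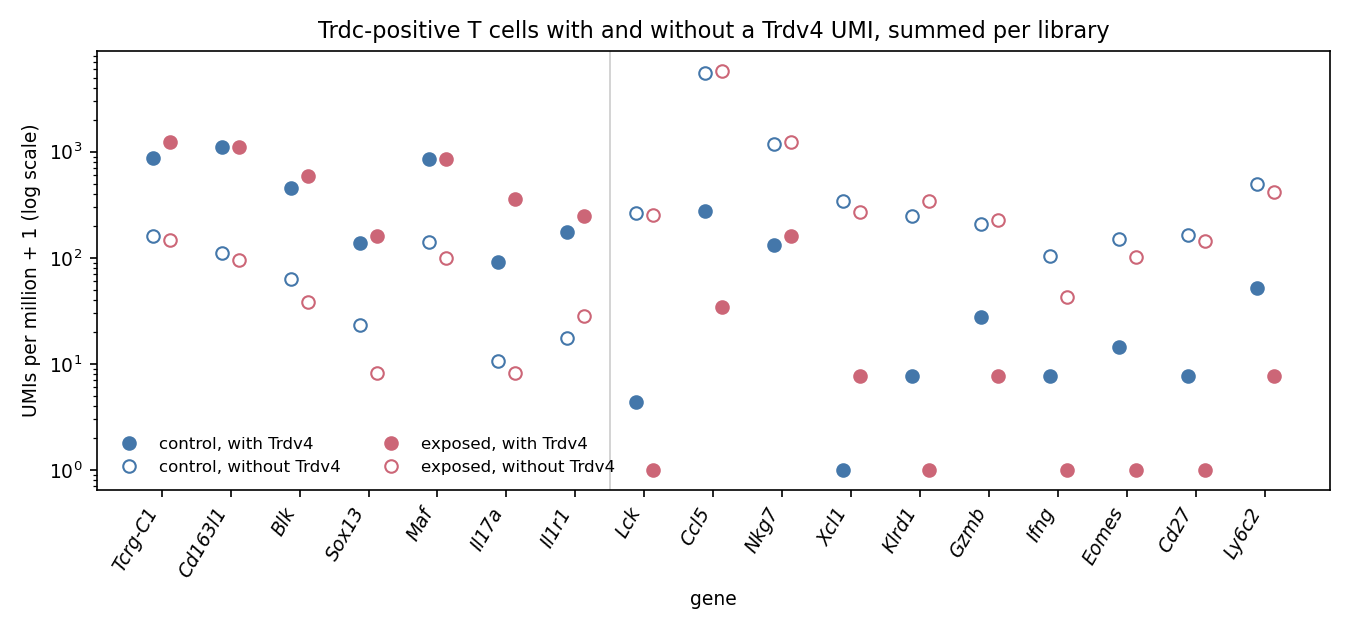
CPM plus 1 (y axis, log scale) of receptor, type 17 and type 1 genes (x axis) in Trdc-positive T cells with a Trdv4 UMI (filled) and without (open), summed in the control (blue) and exposed (red) library, 1 point a library with no error bar. Filled points lie above open ones for the genes left of the line, such as Cd163l1 (1115 against 109 in the control library), and below them for Lck and the type 1 genes to its right. The genes drawn were chosen among those that passed, so their directions were set by that choice. Il23r, Gzma, Tbx21 and Klrk1, which did not pass, are not drawn.

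Trdv4 RNA was also found in cells without any CD3 UMI. In the gate for group 2 innate lymphoid cells (Il1rl1 and Gata3 with no CD3 UMI), which are lymphocytes that do not use a T cell receptor, Trdv4 was seen in 15 of 82 control cells (18.3%, 10.6 to 28.4) and 25 of 84 exposed cells (29.8%, 20.3 to 40.7). In the whole gate, with or without Trdv4, Il5 was seen in 17 and 14 cells and Areg in 31 and 38. These are genes of that cell type that the gate did not use. Thinned to 1500 UMIs, 4 of 82 (4.88%) and 9 of 82 (11.0%) still had Trdv4. In the NK gate, defined by Ncr1, it was seen in 27 of 488 (5.53%, 3.68 to 7.95) and 29 of 466 (6.22%, 4.21 to 8.82). In the B cell and neutrophil gates it was seen in 0 of 1977 and 0 of 2571 control cells and 0 of 1755 and 0 of 2580 exposed cells. In the remaining cells without CD3 UMIs it was seen in 15 of 1681 control cells (0.892%, 0.500 to 1.47) and 9 of 1997 exposed cells (0.451%, 0.206 to 0.854), at median depths of 9218 and 11916 UMIs. The counts of 0 in the B cell and neutrophil gates allow shares of up to 0.152% and 0.117% in the control and 0.171% and 0.116% in the exposed library.

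In most ILC2 and NK gate cells with Trdv4 it was seen without Trdc. The ILC2 gate held 24 and 34 UMIs of Trdv4 but 1 and 1 UMI of Trdc, whereas Trdc-positive T cells held 94 and 84 UMIs of Trdv4 for 1340 and 1250 of Trdc. None of the 40 ILC2 gate cells with Trdv4 had a Trdc UMI, and 7 of 15 control and 3 of 25 exposed ones had Tcrg-C1. The NK gate held 31 and 30 UMIs of Trdv4 for 146 and 163 of Trdc, and Trdc and Trdv4 were together in 4 of 27 and 4 of 29 of its Trdv4 cells. For each 100 Trdc UMIs there were 21.2 and 18.4 Trdv4 UMIs in the NK gate and 7.01 and 6.72 in Trdc-positive T cells. The latter were chosen by Trdc, unlike the NK and ILC2 gates, so part of this contrast is set by the gates. In all T cells the values were 8.06 and 7.20, and in the remaining cells without CD3 UMIs 26.2 and 26.7. The part of free RNA in these counts was not tested. Median depths were 4567 and 4961 UMIs in the ILC2 gate and 4158 and 4365 in the NK gate. No Trbv or Trav member was seen in either gate. Trdv4 lies at chr14:54074905-54075515, before Trdc at chr14:54142851-54148868 on the same strand.

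Trdv4 cells inside the T cell gate without Trdc often held markers of these gates. There were 13 control and 6 exposed cells of this kind, of which 9 and 2 had both Il1rl1 and Gata3 and 3 and 2 had Ncr1. Trdv2-2 was seen in 0 ILC2 gate cells of either library and in 6 of 488 and 17 of 466 NK gate cells (1.23%, 0.453 to 2.66, and 3.65%, 2.14 to 5.78). Tcrg-V members held 0 and 4 UMIs in the ILC2 gate, and Tcrg-V1 was seen in 3 exposed cells there.

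**Figure D4:**
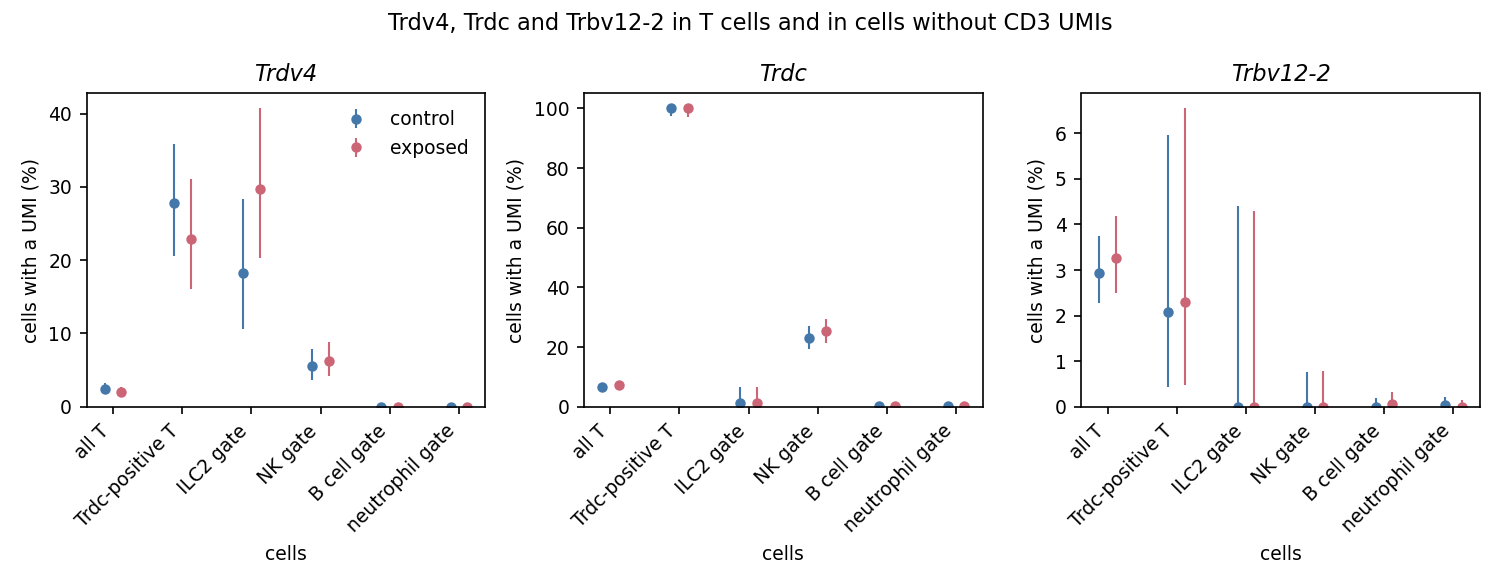
Share of cells (%, y axis, a separate scale for each gene) with a UMI of Trdv4, Trdc or Trbv12-2 in T cells, Trdc-positive T cells and 4 gates of cells without CD3 UMIs (x axis), for the control (blue) and exposed (red) library, with bars for 95% exact Clopper-Pearson intervals that cover counting error only. Trdv4 stands at 18.3% and 29.8% in the ILC2 gate where Trdc is in 1 cell of each library, and both are at or near 0 in the B cell and neutrophil gates.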

How the data were processed

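Single-cell RNA of sorted CD45+ lung cells was measured with a 10x Genomics 3′ kit on a NovaSeq instrument, in 1 control and 1 exposed library. The deposited values are raw UMI counts for each gene in each barcode. The submitters' processing notes name Cell Ranger 3.1.3 and mm10, while the file headers give 3.1.0. How reads that match several genes were counted is not given in the sources used here. The files hold 10312 and 10000 barcodes with 62047730 and 67030914 UMIs in the control and exposed library.

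Kept barcodes had 500 UMIs and 200 genes or more, with mitochondrial UMIs not above 10%. Doublets were scored against simulated ones, and 751 and 706 barcodes, the number expected at 0.8% per 1000 cells, were removed. Shares have 95% exact Clopper-Pearson intervals and ratios exact conditional binomial intervals, which cover counting error only. A limit beside a count of 0 is 3 cells of the total. CD8 and CD4 T cells, and Trdc-positive T cells with and without Trdv4, were compared on UMIs summed per library with edgeR 4.0.16 (TMM, quasi-likelihood test, library as block, summed count 20 or more, Benjamini-Hochberg over all tested), and with DESeq2 1.42.0 as alternative. R 4.3.3 and Python 3.11.15 were used. The edgeR step was tested on simulated data, where it missed most genes changed 2-fold in both comparisons. A gene that was not called can therefore still differ.

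Members named are the 8 Trbv and 8 Trav genes seen in most T cells, every Trdv and Tcrg-V gene, genes whose interval excludes 1, genes called between CD8 and CD4 or else the 5 with the smallest p, and Trav11 with Trav genes of a delta name. Trav1 had 3 UMIs. Members and lists were chosen with earlier results of these data known. Sequences are from GENCODE M21 transcripts, matched by Ensembl identifier; the 26 members all matched. Some genes of the lists are not reported here by name.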

Additional observations from a re-analysis of the deposited data

Results flagged for a closer look

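Trdv4 UMIs were found in cells without CD3 UMIs, which no comparison between groups uses. In the ILC2 gate the shares were 18.3% (15 of 82 cells) in the control and 29.8% (25 of 84) in the exposed library. In the NK gate they were 5.53% (27 of 488) and 6.22% (29 of 466). The B cell and neutrophil gates of both libraries had 0 cells with Trdv4, and the remaining cells without CD3 UMIs had 15 of 1681 (0.892%) and 9 of 1997 (0.451%).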

How the results depend on the processing

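The count of 0 members called between exposed and control stayed at 0 in 34 of 37 alternatives over the 4 classes. It was 1 in all T cells under a stricter cell filter (Trbv13-2 higher) and 1 with a T cell gate of 2 UMIs (Trdv2-2 lower), and 2 in CD4 T cells when UMIs were counted in place of cells (Trav13-4-dv7 and Trav14-3 higher). The exposed UMIs behind the CD4 calls lay in few cells, 7 of Trav13-4-dv7 in 2 cells and 9 of Trav14-3 in 5 cells. The cause was not tested. Without the replicate block, which pairs both classes of a library, the CD8 against CD4 comparison called 79 genes and not 919; DESeq2 called 215, doublets kept gave 577, and classes called at 2 UMIs gave 595. For Trdv4-positive against Trdv4-negative cells, with 242 genes called, the fit without the replicate block called 570, DESeq2 size factors in edgeR gave 472, no filter on low counts 875, a summed count of at least 100 gave 456, doublets kept 1257, Trdc of 2 UMIs 648, and leaving out Ncr1 cells 700. The 7 type 17 and 9 type 1 calls ranged from 6 to 10 and from 9 to 12 over 10 alternatives; DESeq2 lost Ifng (adjusted p 0.0752), and without Ncr1, Trac, Cd4 and Cd8 cells Eomes (log2 fold change -2.85) did not pass in edgeR. The difference of Tcrg-V6, which did not pass, did so under 7 of these alternatives. These alternatives of the Trdv4 comparison, and the comparison itself, were chosen after seeing the data. Leaving out a library leaves 1 sum a class and no test, so values per library were given.

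Chain shares moved with depth and gate. Thinned to 1500 UMIs, the control and exposed shares of T cells were 0.942% and 1.28% for Trav, 3.30% and 3.07% for Trbv, 1.37% and 1.06% for Trdv, and 0.471% and 0.335% for Tcrg-V. With a gate of 2 UMIs the control Trav share was 4.29% and the Trbv shares 11.6% and 12.9%. Without cells holding markers of other lineages the control Trav share was 4.64%, the Trbv shares 10.9% and 14.5% and the control Trdv share 4.37%. The share of cells with 2 or more Trbv genes thinned to 0% and 1.82%, and the ILC2 gate share of Trdv4 to 4.88% and 11.0%.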

Other observations

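Outside the fixed lists, the genes with the smallest p among those higher in Trdv4-positive Trdc-positive T cells included S100a4 (447 UMIs in Trdv4-negative and 970 in Trdv4-positive cells of the control library, 426 and 699 in the exposed, log2 fold change 2.53 ± 0.13, SE, edgeR adjusted p = 0.0172), Tmem176a (3.07 ± 0.18) and Ramp1, a subunit of the receptor for the neuropeptide CGRP (2.53 ± 0.21). Lower ones included Ms4a4b (573 and 11 UMIs, 568 and 3, -4.86 ± 0.31), Satb1 (-2.64 ± 0.22) and 7 ribosomal protein genes among the 15 with the smallest p, at -0.79 to -0.54. They were chosen after their values were seen.

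Transcripts of the recombination machinery were rare. Rag1 was seen in 5 control and 2 exposed T cells. In CD8 T cells it held 7 UMIs in 1 control cell and 16 in 1 exposed cell, and in CD4 T cells 0 and 0. Dntt, the enzyme that adds bases at the joint, was seen in 19 control and 14 exposed T cells, and 41 UMIs of it lay in 2 exposed Trdc-positive cells without Trdv4.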
